A study of Homo sapiens with 6 samples.

Results

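The Hedgehog pathway genes described here were 9 genes of the reception and transduction of the Hedgehog signal, taken from the table by gene symbol: the transcription factors GLI1, GLI2 and GLI3, the receptor PTCH1, the transducer SMO, the inhibitors SUFU, GPR161 and HHIP, and the co-receptor BOC. All 9 had a row among the 60624 gene rows, and 8 of them were among the 14778 genes that were tested because their level averaged 1 TPM or more (TPM, a share of a library's transcripts that allows for transcript length). RNA was sequenced from A549 cells, an established human lung adenocarcinoma line, in 3 libraries after transfection with siCEP20, a small interfering RNA against the centrosomal protein gene CEP20, and in 3 libraries after transfection with the control siCTR. All 6 libraries came from the same line and were labelled with 3 days of transfection, with no allele or drug differing between the groups. The labels also carry the words plasmid transfection, and which of the siRNAs in the study's methods was used for the sequenced cells is not stated in the sources used here. The labels do not say that the replicates were separate cultures, so a p-value measures the spread between these libraries, which may be technical.

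In vertebrate cells the Hedgehog signal is read at the primary cilium, the single antenna built on the mother centriole. Without a ligand, PTCH1 keeps SMO out of the cilium, GPR161 sustains cAMP and protein kinase A signalling there, and SUFU holds the GLI proteins in an inactive or repressor form. Binding of a ligand to PTCH1 and its co-receptors lets SMO accumulate, GPR161 leave and GLI2 become an activator, and GLI1, PTCH1 and HHIP are the pathway's own transcriptional targets in many tissues. In the adult lung the pathway is mainly known for signals between epithelium and mesenchyme.

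GLI proteins bind the 9 bases GACCACCCA, and PTCH1 is the textbook target, so its start site is shown here. Windows of 300 bases around annotated start sites (250 before and 50 after) were found in RefSeq's sequences for 7 of the 9 genes. GLI1 and GLI3 had no window, so their start sites were not searched. The 9 bases or their reverse complement TGGGTGGTC were present in the windows of 1 of the 7 genes searched, PTCH1. Among all genes with a window, 81 of 27305 (0.297%) held the motif, as did 83 of 35116 windows (0.236%). The stretch below is the 250 bases before one of the 5 PTCH1 start sites in the table, chr9:95509267-95509516 in GRCh38.p14, read 5′ to 3′ on the minus strand, with the motif in capitals.
PTCH1: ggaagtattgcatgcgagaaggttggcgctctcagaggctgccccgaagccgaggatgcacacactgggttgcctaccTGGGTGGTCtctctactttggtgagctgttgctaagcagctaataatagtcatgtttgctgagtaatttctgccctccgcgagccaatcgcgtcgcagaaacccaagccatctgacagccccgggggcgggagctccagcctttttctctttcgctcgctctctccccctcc
The motif began 172 bases before the start site, at 95509430 to 95509438 on chromosome 9, and was read on the strand opposite to the gene. The stretch lies within the span of the PTCH1 gene, downstream of another of its annotated start sites, and its GC content was 57.2%. A match of letters is a description of the window and says nothing of binding in these cells.

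GLI2 and GLI1 rose after CEP20 knockdown, the levels of SUFU and GPR161 lay higher in every siCEP20 library but did not pass the adjusted threshold, and no change of PTCH1, SMO, BOC or HHIP was detected. A gene was called when its limma p-value, adjusted over all 14778 tested genes, was under 0.05 and its fold change was over 1.5 or under 0.67. Of the 8 tested genes 1 was called higher (GLI2) and 0 lower, where 11.2% of all tested genes were called higher and 4.61% lower. By adjusted p alone 2 of 8 were higher (GLI1 and GLI2) and 0 lower, against 30.2% and 13.2% of all tested genes. All siCEP20 values were above all siCTR values for 4 of 8 genes and below them for 0, against 38.4% and 17.0% of all tested genes. The median log2 fold change of the 8 genes was 0.19, beside 0.13 for all tested genes, and with shares this close to the background the counts say nothing particular about the group. With median-of-ratios scaling, which centres the libraries on each other by construction, the general shift of 0.13 became -0.01. The split of calls over all genes went from 1659 higher and 682 lower to 875 higher and 1121 lower. Whether the shift of 0.13 lay in the cells or in the scaling was not tested.

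CEP20 itself, the check of the labels, was listed at 29.2, 30.5 and 35.1 TPM in siCTR and at 16.2, 15.3 and 17.3 TPM in siCEP20, so 51.4% of its mean level was left (log2 fold change -0.92, adjusted p = 0.000205). Between 14429 and 14600 genes per siCTR library and between 14851 and 14987 per siCEP20 library reached 1 TPM, and the read depth is unknown because TPM does not keep it. Of 11 markers of A549 and epithelial cells, 8 had a mean of at least 1 TPM, led by keratins, while SFTPB, SFTPC and NKX2-1 were at or near 0, and the list summed to 10090 to 10596 TPM in siCTR and 11956 to 12231 TPM in siCEP20. EPCAM (log2 fold change 1.10) and CDH1, the E-cadherin gene (0.92), were called higher. KRT8, KRT18, KRT7 and ALDH1A1 were higher by adjusted p without a call. AKR1C1 (-0.33, adjusted p = 0.0019) and AKR1B10 (-0.18, adjusted p = 0.0163) were lower by adjusted p without a call, so the markers did not all move together. Of 8 markers of fibroblasts and mesenchyme, 2 had a mean of at least 1 TPM, COL1A1 (log2 fold change 1.61) and THY1 (0.71), and both were called higher. COL1A2 and DCN were at 0 in all libraries, and the list's summed level was 12.5 to 15.3 TPM in siCTR and 31.3 to 35.4 TPM in siCEP20. Of 5 blood and immune markers only CD68 had a mean of at least 1 TPM, and it was called higher (0.79). In that list 3 were at 0 in all libraries, and the sum was 15.0 to 23.0 TPM in siCTR and 27.0 to 45.3 TPM in siCEP20. The 4 endothelial markers summed to at most 0.125 TPM. The epithelial, mesenchymal and CD68 sums all moved with the groups in the same direction as GLI1 and GLI2, and their part in those results was not tested.

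On the TPM scale, which allows genes to be compared per length, GLI1 was the most abundant of the 9 genes in both groups. In siCTR it was followed by SMO, GLI2, GPR161, SUFU, BOC, PTCH1 and HHIP, with GLI3 nearly absent. In siCEP20 the order was the same except that GLI2 stood above SMO. GPR161 and SUFU were neighbours whose library values overlapped in both groups, whereas BOC and PTCH1 overlapped in siCEP20 and not in siCTR. The mean level of GLI1 over all 6 libraries exceeded that of 67.3% of the tested genes, GLI2 and SMO lay near the middle at 50.5% and 50.1%, and HHIP, just above the filter with a mean of 1.20 TPM, exceeded only 3.19%.

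**Figure D1:**
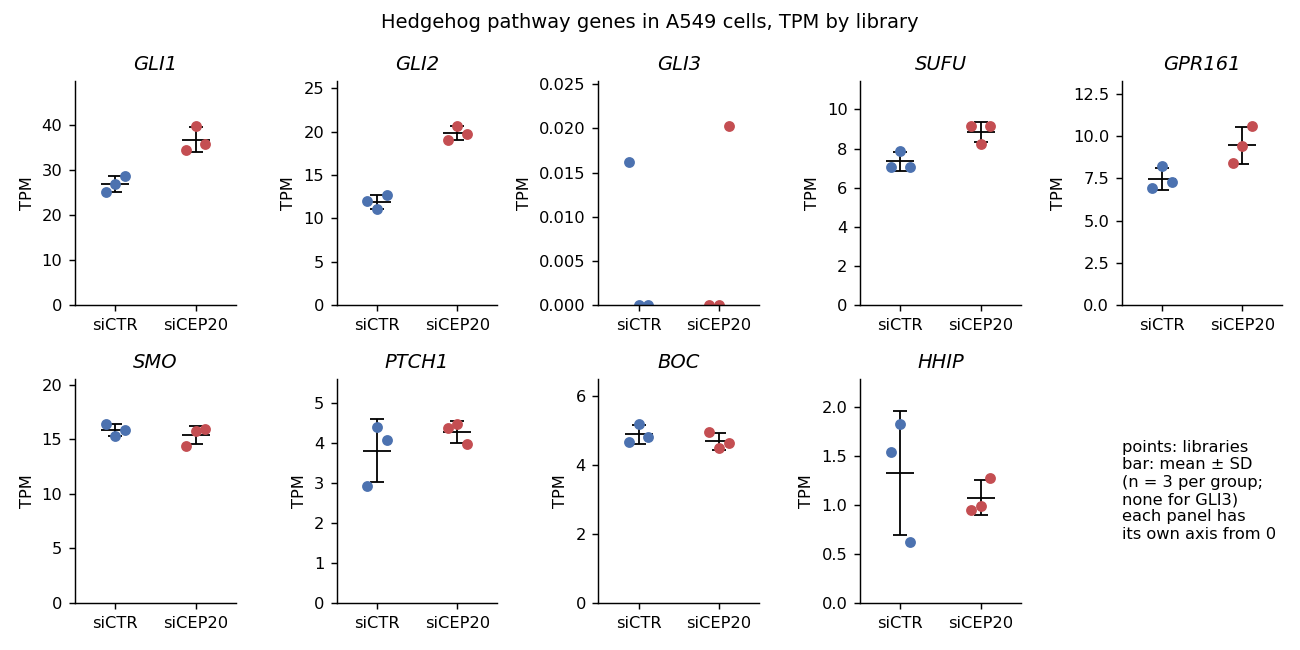
TPM of the 9 Hedgehog pathway genes in each library, 3 siCTR (blue) and 3 siCEP20 (red), with the mean and SD of each group as bars and each axis starting at 0. GLI1, GLI2, SUFU and GPR161 show separate groups, PTCH1, SMO, BOC and HHIP show overlapping groups, and GLI3, drawn without bars, is at 0 in 4 of 6 libraries.

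The receptor and co-receptor came first in the pathway and were found at low levels. PTCH1 (ENSG00000185920, hg38 chromosome 9, 95442980 to 95517057, minus strand), the Hedgehog receptor that holds SMO inactive, had 2.92, 4.42 and 4.09 TPM in siCTR and 4.38, 4.49 and 3.98 TPM in siCEP20. Control replicate 1 was the lowest library and the other 5 lay within a narrow band, so the groups overlapped. Its mean was 3.81 ± 0.787 TPM (SD, n = 3) in siCTR and 4.28 ± 0.271 TPM in siCEP20, a log2 fold change of 0.15 with a 95% interval from -0.20 to 0.49 (adjusted p = 0.459). The sign of that difference was not stable, since it was -0.02 after quantile normalization and -0.12 once length and GC content had been corrected for.

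BOC (ENSG00000144857, chromosome 3, 113211003 to 113287459, plus strand), a cell-surface protein that binds the ligand together with PTCH1, had 4.66, 5.20 and 4.80 TPM in siCTR and 4.96, 4.48 and 4.63 TPM in siCEP20. The groups overlapped and the log2 fold change was -0.05 (95% interval -0.30 to 0.20, adjusted p = 0.737). HHIP (ENSG00000164161, chromosome 4, 144646156 to 144745271, plus strand), a membrane protein that binds and sequesters the ligands, had 1.54, 1.84 and 0.619 TPM in siCTR and 0.952, 0.994 and 1.28 TPM in siCEP20. Control replicate 3 lay below every other library and control replicates 1 and 2 above every other, so the siCEP20 values fell inside the control range. The log2 fold change of HHIP was -0.13 with the widest interval of the 8 genes, from -0.68 to 0.42 (adjusted p = 0.686), which leaves changes of either direction possible. HHIP shares 15202 bases with HHIP-AS1, a gene on the opposite strand whose mean was 2.94 TPM in siCTR and 5.40 TPM in siCEP20, and whether the quantification used strand is not stated in the sources used here.

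SMO (ENSG00000128602, chromosome 7, 129188633 to 129213545, plus strand), the seven-pass membrane protein that carries the signal inward, had 16.4, 15.3 and 15.8 TPM in siCTR and 14.4, 15.7 and 15.9 TPM in siCEP20. The groups overlapped, with means of 15.8 ± 0.582 and 15.3 ± 0.822 TPM. The log2 fold change was -0.04 (95% interval -0.23 to 0.14, adjusted p = 0.687), an interval that excludes a change of 1.5-fold in either direction on this scale. With length and GC content corrected for, the value was -0.20 and passed the adjusted threshold (adjusted p = 0.0461), while its fold change stayed too small for a call.

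The negative regulators downstream of PTCH1 did not pass the adjusted threshold. GPR161 (ENSG00000143147, chromosome 1, 168079542 to 168137667, minus strand), a ciliary G protein-coupled receptor that raises cAMP, had 6.93, 8.21 and 7.25 TPM in siCTR and 8.41, 9.38 and 10.6 TPM in siCEP20. Every siCEP20 value was above every siCTR value, although the lowest siCEP20 and the highest siCTR libraries were close. Its means were 7.46 ± 0.662 and 9.46 ± 1.09 TPM, with a log2 fold change of 0.30 (95% interval 0.04 to 0.56) that missed the adjusted threshold (adjusted p = 0.0602). Over the 15 alternative settings that change the fit the value ran from 0.06 to 0.38 and passed the adjusted threshold in 2 of them.

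SUFU (ENSG00000107882, chromosome 10, 102503972 to 102633535, plus strand), the cytoplasmic protein that binds and restrains the GLI factors, had 7.06, 7.90 and 7.08 TPM in siCTR and 9.13, 8.24 and 9.16 TPM in siCEP20. Here too the groups did not overlap, with means of 7.35 ± 0.479 and 8.84 ± 0.524 TPM. The log2 fold change of 0.24 (95% interval 0.02 to 0.46) did not pass after adjustment (adjusted p = 0.0798), and against the all-gene median it was 0.11. The value was between 0.05 and 0.28 over the same 15 settings and passed in 0 of them.

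GLI2 (ENSG00000074047, chromosome 2, 120735623 to 120992653, plus strand), the main activator that answers SMO, changed most. It had 11.9, 11.1 and 12.7 TPM in siCTR and 19.1, 20.6 and 19.7 TPM in siCEP20, and the lowest siCEP20 library lay well above the highest siCTR library. The means were 11.9 ± 0.806 and 19.8 ± 0.793 TPM, a log2 fold change of 0.69 with a standard error of 0.0831 (95% interval 0.49 to 0.88, adjusted p = 0.000485). This corresponds to a 1.61-fold rise with an interval from 1.41 to 1.84, so the bound of 1.5 for a call lies inside it. GLI2 passed the adjusted threshold in 15 of 15 settings, with values from 0.44 to 0.73, but its fold change fell under 1.5 with median-of-ratios scaling (0.54), quantile normalization (0.53) and the correction for length and GC content (0.44).

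GLI1 (ENSG00000111087, chromosome 12, 57459785 to 57472268, plus strand), an activator that is itself a target of the pathway and amplifies its output, had 25.1, 26.8 and 28.6 TPM in siCTR and 34.4, 39.7 and 35.8 TPM in siCEP20. The groups were separate, with means of 26.8 ± 1.77 and 36.6 ± 2.78 TPM. GLI1 rose by 0.43 on the log2 scale, with a standard error of 0.0829 (95% interval 0.24 to 0.62, adjusted p = 0.00394), and the 1.35-fold change (interval 1.18 to 1.54) kept it from being called. It passed the adjusted threshold in 15 of 15 settings, with values from 0.28 to 0.48. GLI1 shares 3034 bases with ENSG00000287200 on the opposite strand, which had a mean of 4.43 TPM in siCTR and 4.94 TPM in siCEP20.

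GLI3 (ENSG00000106571, chromosome 7, 41960949 to 42264100, minus strand), the factor best known in its truncated repressor form, was listed at 0 in 4 of 6 libraries, at 0.0162 TPM in siCTR replicate 1 and at 0.0203 TPM in siCEP20 replicate 3. It was therefore not tested, and neither a fold nor its planned ratio to GLI2 is given. GLI1 and GLI2 together made up nearly all of the summed GLI level, which was 37.1, 37.9 and 41.4 TPM in siCTR and 53.4, 60.4 and 55.5 TPM in siCEP20. In bulk RNA, fewer cells that express a gene and less RNA of it per cell cannot be told apart, and this holds for every level given here.

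**Figure D2:**
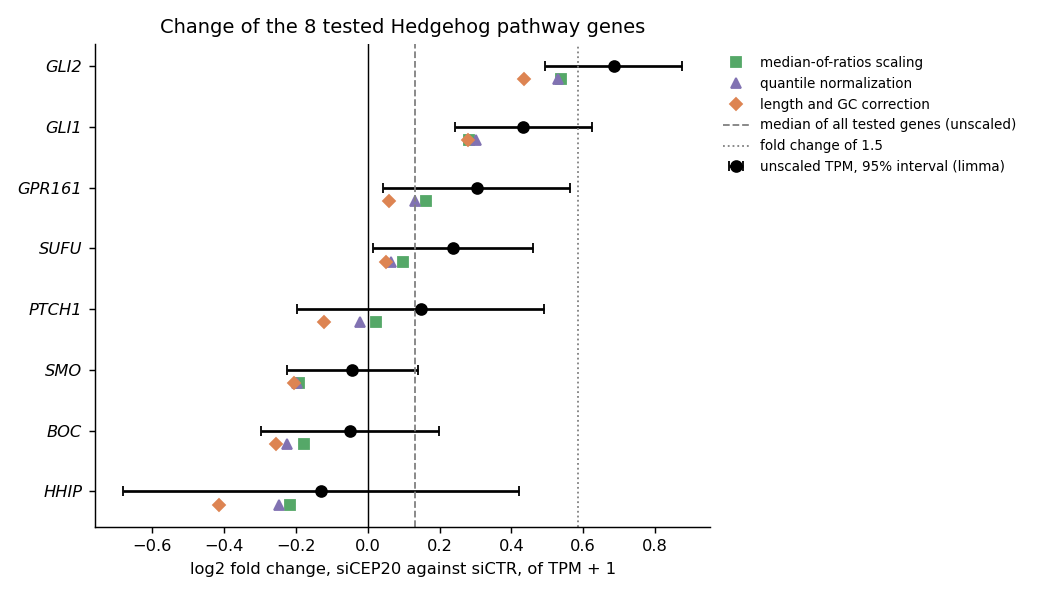
Log2 fold change of TPM + 1, siCEP20 against siCTR, of the 8 tested genes, as black points with 95% limma intervals, beside the values after median-of-ratios scaling, quantile normalization and a correction for length and GC content. GLI2 at 0.69 and GLI1 at 0.43 stay above 0 under each of the 3, whereas PTCH1 at 0.15 crosses 0 after quantile normalization and after the correction.

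Ratios between the genes within a library do not depend on how libraries were scaled to each other. PTCH1 to SMO, GLI2 to GLI3 (not given), SUFU to the summed GLI level and the shares of the GLI genes were in the plan of the analysis. The 6 others were added after the values had been seen. They were GLI1, GLI2, SUFU and GPR161 to SMO, GLI2 to GLI1, and PTCH1 to the sum of GLI1 and GLI2. GLI1, GLI2, SUFU and GPR161 were already separate between the groups, so the separation of their ratios to SMO is no further evidence. The smallest two-sided exact permutation p that 3 against 3 libraries allow is 0.1, so no ratio could reach 0.05.

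The ratio of GLI2 to SMO was 0.728, 0.729 and 0.805 in siCTR and 1.32, 1.31 and 1.24 in siCEP20, so GLI2 was below SMO in all control libraries and above it in all knockdown libraries. The groups were separate and differed by 0.78 on the log2 scale (exact permutation p = 0.1). GLI1 to SMO was 1.53, 1.76 and 1.81 in siCTR and 2.39, 2.52 and 2.25 in siCEP20, again without overlap, with a log2 difference of 0.49 (exact permutation p = 0.1). GPR161 to SMO and SUFU to SMO were also separate, with log2 differences of 0.39 and 0.31.

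GLI2 gained on GLI1 as well. The gap between their log2 fold changes, 0.69 and 0.43, was narrower after the correction for length and GC content, at 0.44 and 0.28. Its share of the summed GLI level was 32.2%, 29.3% and 30.8% in siCTR and 35.7%, 34.2% and 35.4% in siCEP20, and the ratio of GLI2 to GLI1 was 0.415 to 0.476 in siCTR and 0.520 to 0.555 in siCEP20. The ratio of SUFU to the summed level of the GLI factors it restrains was lower in siCEP20, with 0.190, 0.208 and 0.171 in siCTR and 0.171, 0.136 and 0.165 in siCEP20, a log2 difference of -0.27. Those groups were separate by very little, with control replicate 3 and knockdown replicate 1 nearly equal.

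The ratios of the receptor overlapped between the groups. PTCH1 to SMO was 0.178, 0.290 and 0.258 in siCTR and 0.304, 0.286 and 0.250 in siCEP20, overlapping, with a log2 difference of 0.24 (exact permutation p = 0.5), and without control replicate 1 the difference was 0.03. PTCH1 to the sum of GLI1 and GLI2 was 0.0789, 0.117 and 0.0989 in siCTR and 0.0820, 0.0744 and 0.0717 in siCEP20, with a log2 difference of -0.35 and overlapping groups (exact permutation p = 0.2).

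**Figure D3:**
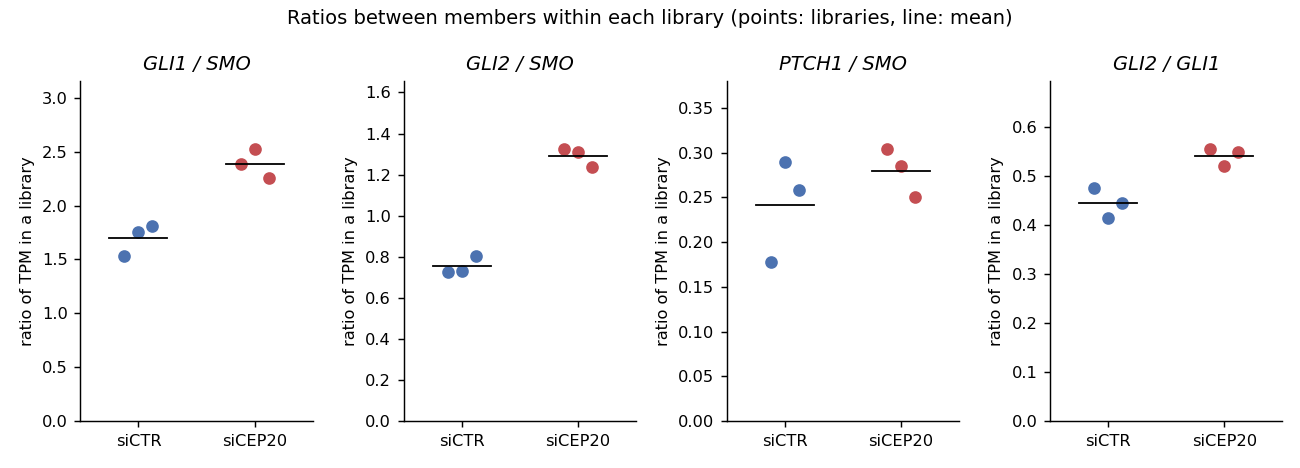
Ratios of TPM between members within each library, points for the 3 siCTR (blue) and 3 siCEP20 (red) libraries and a line for the mean, each axis starting at 0. GLI1 to SMO, GLI2 to SMO and GLI2 to GLI1, chosen after the values had been seen, are separate between the groups. PTCH1 to SMO, which was planned, overlaps.

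The other genes of the pathway were counted in 5 lists by role, 99 genes in all without the 9 described above, of which 76 were tested. Of these 76 genes 13 were called higher and 1 lower, and 40 were higher and 4 lower by adjusted p alone, and their log2 fold changes had a median of 0.34. The 13 include DISP2, described below, which passed the filter of 1 TPM only through siCEP20. Over all tested genes 11.2% were called higher and 4.61% lower, 30.2% were higher and 13.2% lower by adjusted p, and the median was 0.13, and these are the background for each list below. With median-of-ratios scaling 7 of the 76 were called higher, where 5.92% of all tested genes were, and 2 were called lower. HHAT and GAS1 are among the genes that stand in 2 lists, and the lists were not tested as sets.

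The ligands were scarce. SHH, the ligand of the airway epithelium, had 1.69, 2.97 and 3.21 TPM in siCTR and 2.52, 2.91 and 2.31 TPM in siCEP20, overlapping, with a log2 fold change of 0.01 (adjusted p = 0.978). IHH and DHH, the other two ligands, were listed at 0 in all 6 libraries. Of the 13 genes for the ligands and their release 4 were tested, and the only call was DISP2, a relative of the transporter DISP1 that releases lipid-bearing ligand. DISP2 had 0.842, 0.700 and 0.836 TPM in siCTR and 1.90, 1.81 and 2.11 TPM in siCEP20, without overlap (log2 fold change 0.71, adjusted p = 0.00812). Its mean was 0.793 TPM in siCTR and 1.94 TPM in siCEP20, so it passed the filter of 1 TPM only through siCEP20. The call is therefore no support for a rise of this list. With quantile normalization and with the correction for length and GC content, 0 genes of the list were called higher. DISP1 at 0.38 (adjusted p = 0.0647) and HHAT, which adds palmitate to the ligands, at 0.12 (adjusted p = 0.499) did not pass.

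Among 8 further receptors, co-receptors and regulators of SMO at the membrane, 5 were tested, 0 were called higher and 1 was called lower. That gene was MOSMO, which belongs with MGRN1 to a membrane ubiquitin ligase complex that removes SMO from the cell surface. MOSMO had 14.0, 17.4 and 15.6 TPM in siCTR and 9.23, 10.5 and 9.76 TPM in siCEP20, with no overlap (log2 fold change -0.62, adjusted p = 0.00194). Without control replicate 2 or without knockdown replicate 1 its fold change no longer reached the bound for a call. MGRN1, the ligase of that complex, went the other way, from 45.0 ± 3.16 to 62.9 ± 10.4 TPM (0.46, adjusted p = 0.0130). The co-receptor CDON had 3.98 ± 0.774 TPM in siCTR and 3.26 ± 0.430 TPM in siCEP20 (-0.22, adjusted p = 0.297), RNF220 had a value of -0.07 (adjusted p = 0.618), and the co-receptor GAS1, with means of 0.0779 and 0.0703 TPM, was under the filter.

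For the signalling of SMO and GPR161 at the cilium 20 of 21 genes were tested, 10 were higher and 0 lower by adjusted p (30.2% and 13.2% over all genes), 3 were called higher, near the 11.2% over all genes, and the median was 0.34. With median-of-ratios scaling and with the correction for length and GC content 2 were called higher, where 5.92% and 6.14% of all tested genes were. The called genes were ARRB2, a beta-arrestin that moves SMO and GPR161 in and out of the cilium, IQCE, a partner of the EVC proteins next to SMO at the base of the cilium, and PDE4D, a cAMP phosphodiesterase. ARRB2 rose from 69.5 ± 3.93 to 122 ± 8.09 TPM (0.80, adjusted p = 0.000125) and IQCE from 17.1 ± 1.09 to 32.8 ± 2.89 TPM (0.90, adjusted p = 0.000201), both with separate groups. GNAS, which encodes the stimulatory G protein subunit that raises cAMP, rose by 0.35 (adjusted p = 0.00178), and IFT88, a subunit of the intraflagellar transport complex, by 0.58 (adjusted p = 0.00262). PDE4D was named after its values had been seen, with 70.8 ± 10.5 and 112 ± 13.7 TPM (0.65, adjusted p = 0.00336).

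All 30 genes for the kinases and the turnover of GLI were tested, 17 were higher and 1 lower by adjusted p (30.2% and 13.2% over all genes), 3 were called higher, near the 11.2% over all genes, and the median was 0.35. The 3 calls became 1 with median-of-ratios scaling, 1 with quantile normalization and 0 with the correction for length and GC content. Of all tested genes 5.92%, 6.25% and 6.14% were called higher in these settings. CREBBP, an acetyltransferase and GLI co-activator, rose from 16.6 ± 0.848 to 27.8 ± 1.14 TPM (0.71, adjusted p = 0.000261). The casein kinases CSNK1D (0.49, adjusted p = 0.00042) and CSNK1G2 (0.49, adjusted p = 0.0009) rose without reaching the fold for a call, and CSNK1G1 was called at 0.80 (adjusted p = 0.000834). CSNK1D, with means of 149 TPM in siCTR and 209 TPM in siCEP20, shares 22107 bases with SLC16A3 on the opposite strand. SLC16A3 had a mean of 157 TPM in siCTR and 141 TPM in siCEP20, and the strand setting is unknown. CSNK1G1 overlaps ENSG00000259316 on the same strand over 174994 bases, a gene with a mean of 0.20 TPM in siCTR and 5.32 TPM in siCEP20, so the division of its reads is uncertain. The third call, GSK3B, a kinase that marks GLI proteins for processing, had a value of 0.67 (adjusted p = 0.00236) and SAP18, a SUFU-binding co-repressor subunit, was the gene that was lower (-0.20, adjusted p = 0.0283), both named after their values had been seen.

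Of 30 genes reported as GLI targets in other tissues 18 were tested, 11 were higher and 2 lower by adjusted p (30.2% and 13.2% over all genes), 6 were called higher (11.2% over all genes), 5 were at 0 in all libraries, and the median was 0.46. With median-of-ratios scaling 3 were called higher and 1 lower, and with quantile normalization and the correction for length and GC content 3 were called higher and 0 lower. In these settings 5.92%, 6.25% and 6.14% of all tested genes were called higher, so the background fell too. The largest change was that of SNAI1, a zinc finger transcriptional repressor, with 10.1, 9.42 and 10.3 TPM in siCTR and 25.3, 27.4 and 30.5 TPM in siCEP20 (1.39, adjusted p = 4.77e-05). SOX9 rose from 17.2 ± 1.76 to 33.4 ± 1.00 TPM (0.93, adjusted p = 0.000162), SOX2 from 1.44 ± 0.190 to 4.09 ± 0.413 TPM (1.06, adjusted p = 0.000771) and the secreted WNT antagonist SFRP1 from 36.8 ± 2.87 to 59.1 ± 2.84 TPM (0.67, adjusted p = 0.000386). These genes answer many other signals, and whether GLI proteins had a part in their change was not tested. A start-site window was found for 18 genes of the list, counted apart from the 18 tested, and 0 held the motif printed above. Since only 0.297% of all genes with a window held it, that 0 says nothing of their regulation. Of the calls and falls outside the naming rule, chosen after their values had been seen, IGFBP3 (0.62, adjusted p = 0.00191) and FOXF2 (0.60, adjusted p = 0.000941) were called higher, and CCND1, the cyclin of the G1 phase, fell by 0.28 (adjusted p = 0.00441) and IGFBP6 by 0.50 (adjusted p = 0.00149) on the log2 scale.

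**Figure D4:**
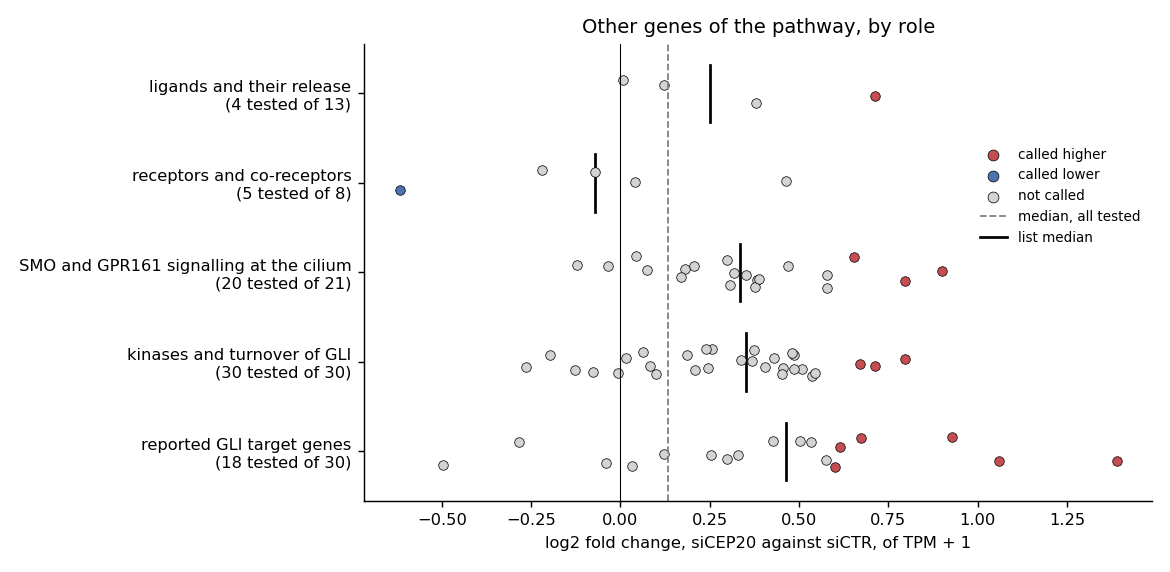
Log2 fold change of TPM + 1, siCEP20 against siCTR, of the tested genes of 5 pathway lists, 1 point a gene, red where called higher, blue where called lower and grey otherwise, with the list median as a black line and the median of all tested genes (0.13) as a dashed line. The list medians run from -0.07 for receptors and co-receptors to 0.46 for reported GLI targets.

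The genes whose log2(TPM + 1) followed a member most closely over the 6 libraries were named as a description, since the best of 14778 genes over 6 libraries in separate groups will be close in any case. For GLI1 these were BARX1 (Pearson r = 0.999), NADSYN1 (0.998) and ANKRD36 (0.998). For GLI2 they were ACSL3, SMC3 and NIPSNAP2, each with r = 0.999. For PTCH1 they were UGGT2 (0.994), TAOK2 (0.994) and CNTNAP3 (0.989), genes that shared its low value in control replicate 1.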

How the data were processed

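The samples were 3 siCEP20 and 3 siCTR libraries of A549 RNA. The authors trimmed reads with fastp 0.20.1, aligned them to hg38 with HISAT2 2.1.0, quantified genes with StringTie 2.0 and deposited TPM, 1 column a library; versions are those of the submitters' processing notes. The annotation release is not given in the sources used here, and the labels and the methods differ in medium, RNA kit and input. TPM keeps no counts or depth, so no counting interval was computed and the authors' DESeq2 test on counts was not repeated. Columns were matched to samples by name.

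Genes were placed with GENCODE release 44, which named 60370 of 60624 rows. Genes averaging 1 TPM or more were compared as log2(TPM + 1) by limma 3.58.1 (lmFit, then eBayes with trend; R 4.3.3), without rescaling or replicate term, with Benjamini-Hochberg adjustment over all tested genes. Fold changes are on the log2(TPM + 1) scale and understate changes of low genes. The procedure was tested on simulated data. Ratios were compared by two-sided exact permutation. Members, lists, motif and tests were chosen with earlier results of these data known.

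Named were the members, CEP20, the 4 genes of each list with the smallest adjusted p, SHH, IHH, DHH, CDON, GAS1 and, for GLI1, GLI2 and PTCH1, the 3 genes most alike; some list genes are not reported here. Alternatives were another pseudocount, filter, scaling or threshold, eBayes without trend, protein-coding genes only, a correction for length and GC content, a replicate block and each library left out. Start-site windows came from RefSeq (GRCh38.p14).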

Additional observations from a re-analysis of the deposited data

How the results depend on the processing

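GLI1 and GLI2 kept an adjusted p under 0.05 and their direction in all 15 alternatives that change the fit. The single member called higher became 0 with median-of-ratios scaling, quantile normalization, the correction for length and GC content and a fold change of 2, and 2 without a fold threshold. The 13 list genes called higher became 7 with median-of-ratios scaling, 7 with quantile normalization, 5 with the correction, 2 at a fold change of 2 and 40 without a fold threshold. Over all tested genes 11.2% were called higher in the main fit. In those settings, in the same order, 5.92%, 6.25%, 6.14%, 1.77% and 30.2% were. The 1 list gene called lower became 2 with median-of-ratios scaling, 4 without a fold threshold and 0 at a fold change of 2, and ranged from 0 to 1 with each library left out. Over all tested genes 682 were called lower in the main fit, and 1121, 1944 and 147 in those 3 settings. CEP20, at -0.92, misses a fold change of 2. PTCH1 was reversed at -0.0218 with quantile normalization and at -0.12 with the correction, and HHIP ranged from -0.37 to 0.0297 with each library left out, the last without control replicate 2; the cause was not tested. The split over all genes was 923 higher and 1016 lower with quantile normalization and 907 and 923 with the correction, and without a filter on TPM 28974 genes were tested. Correlations of deviations were 0.16, -0.06 and -0.06 between same-numbered libraries and ran from -0.12 to 0.17 between differently numbered ones. These values do not settle whether the replicate numbers pair the libraries. With the replicate block the count of members called higher was 1, as without it, and the list counts were 13 and 1. Limits are the 3 libraries a group, the unknown depth, which bears most on HHIP and GLI3, and the unknown strand setting.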
